A study of Mus musculus with 16 samples.

Results

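Cation-chloride cotransporters carry chloride across the cell membrane together with sodium, potassium or both. Slc12a5, Slc12a2, Slc12a4, Slc12a7 and Slc12a9 were examined in motoneurons with and without hnRNP R. These 5 of the 46320 genes in the count table were chosen by name, because Slc12a5 stood among the transcripts most depleted from axons in these data, with Slc12a2 as the gene to compare it with. RNA came from motoneurons of +/+ mice and of Hnrnpr-/- mice, in which CRISPR/Cas9 deleted exons 1 to 5 of the gene for the RNA-binding protein hnRNP R. Cells of all groups were taken from lumbar spinal cord at embryonic day 13, enriched with a p75NTR antibody and plated in microfluidic chambers, where axons grow into a compartment of their own. All cultures received 5 ng/ml CNTF on both sides, and 20 ng/ml BDNF was given on the axonal side alone. RNA of the somatodendritic and the axonal compartment was sequenced in 4 libraries of each genotype, 16 in all, with total counts of 22024923 to 34864151 per library. Axonal cDNA was made with more PCR cycles and larger kit volumes than somatodendritic cDNA, so compartment and amplification cannot be told apart.

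The direction in which chloride flows through GABA-A and glycine receptors depends on these transporters. Slc12a2 encodes NKCC1, which loads cells with chloride using the sodium gradient, whereas Slc12a5 encodes KCC2, the neuron-specific potassium-chloride cotransporter that extrudes chloride and makes GABA and glycine inhibitory as neurons mature. Slc12a4 and Slc12a7 encode KCC1 and KCC4, potassium-chloride cotransporters found in many cell types, where they serve cell volume regulation. Slc12a9 encodes CIP1, a family member that was described as an interactor of other cotransporters.

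In these libraries Slc12a5 was the most abundant member in the somatodendritic compartment and stood in axons at roughly the per-length level of Slc12a2, which kept a mean of 37.6 to 43.3 CPM in all groups. Slc12a4 and Slc12a7 ran the other way and were higher in axons, and Slc12a9 differed little. No member passed the threshold between the genotypes. CPM are read counts scaled to a common library size with TMM factors, and levels of different genes are compared as CPM per kb of exon.

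The genes lie on different chromosomes of GRCm39. Slc12a5 spans chr2:164802766-164841651 on the plus strand, with 6181 bases of exon. Slc12a4 spans chr8:106670222-106692781 on the minus strand, with 3866 bases of exon. Slc12a7 spans chr13:73881172-73964873 on the plus strand, with 5867 bases of exon. Slc12a9 spans chr5:137312820-137338331 on the minus strand, with 9044 bases of exon, and Slc12a2 lies on the plus strand of another chromosome, with 6829 bases of exon. None of the 5 overlaps a gene on the opposite strand, and the microRNA gene Mir7074 within Slc12a4 is the single overlap on the same strand. In the GENCODE M39 annotation, the canonical transcripts encode 1206 residues for Slc12a2, 1087 for Slc12a4, 1115 for Slc12a5, 1083 for Slc12a7 and 914 for Slc12a9. The same transcripts have 3′ UTRs of 3692 bases in Slc12a2 and 2263 bases in Slc12a5, which moved differently between compartments, and of 1824 bases in Slc12a7 and 495 bases in Slc12a4, which moved alike.

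The sequences before a start site of Slc12a5 and of Slc12a7 are shown because these genes differed between compartments in opposite directions. They come from the RefSeq start-site windows on GRCm38.p6, which matched 1 place each in GRCm39, and bases inside annotated exons were left off. Slc12a5 has 2 listed starts 7142 bases apart, of which the first is shown at chr2:164802516-164802721, plus strand. The first of 2 listed starts of Slc12a7 is shown at chr13:73911529-73911778, plus strand. Capitals mark GTGGGCG, the core letters bound by EGR factors, or their reverse complement.
Slc12a5: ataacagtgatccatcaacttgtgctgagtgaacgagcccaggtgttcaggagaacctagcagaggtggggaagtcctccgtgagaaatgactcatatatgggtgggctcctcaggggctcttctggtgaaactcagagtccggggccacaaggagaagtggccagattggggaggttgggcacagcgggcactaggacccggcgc
Slc12a7: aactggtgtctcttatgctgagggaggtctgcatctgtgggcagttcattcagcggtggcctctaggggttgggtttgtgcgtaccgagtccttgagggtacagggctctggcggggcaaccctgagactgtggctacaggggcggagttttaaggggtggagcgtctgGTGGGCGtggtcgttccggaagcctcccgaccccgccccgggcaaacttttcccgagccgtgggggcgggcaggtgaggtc
The G and C content was 57.3% in the Slc12a5 stretch and 63.6% in the Slc12a7 stretch. GTGGGCG or its reverse complement occurs in 7.02% of all 32851 windows of 250 bases before a start, and GGACAGC, letters of one end of the RE1 element bound by the repressor REST, occurs in 5.28%. GGACAGC was found in neither stretch.

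CACGTG, the E-box that the factors USF1 and USF2 bind, is present in 6.02% of all windows, and in 3 of the 6 windows listed for the 4 members with an entry. The windows of Slc12a5 and Slc12a9 that hold it lie wholly inside annotated exons, and the 2 windows of Slc12a7 overlap. It lies 36 bases before the second start of Slc12a5, 38 bases before the second listed start of Slc12a7 and 106 bases before the start of Slc12a9. The 30 bases around each are shown, with the E-box in capitals, from chr2:164809860-164809889, plus strand, chr13:73911766-73911795, plus strand, and chr5:137331933-137331962, minus strand.
Slc12a5: atggcacctgccCACGTGccgggccccgcc
Slc12a7: ggcaggtgaggtCACGTGgcgggcaagggc
Slc12a9: acacccgagacgCACGTGgaacggtttggc
Genes with this word thus included one that was lower in axons, one that was higher and one that passed no threshold, and the window of Slc12a4, which was higher in axons, did not hold it. A match in letters is not evidence of binding.

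The deletion was visible in every library. Hnrnpr had 178 to 241 CPM in +/+ somatodendritic libraries and 120.0 to 422 CPM in +/+ axonal libraries. In Hnrnpr-/- libraries it had 0.545 to 1.16 CPM in the somatodendritic and 0.597 to 1.1 CPM in the axonal compartment. The cell type in the labels was less clear. The summed CPM of 8 motoneuron markers ran from 89.9 to 155 in somatodendritic libraries, most of it from the GDNF receptor gene Ret. Mnx1 was at 0 in 3 of the 4 groups and reached at most 2 counts in the fourth, Isl2 stayed at or below 0.642 CPM, and Chat, the gene of choline acetyltransferase, reached at most 1.31 CPM. The other markers were present at low levels in somatodendritic libraries. Isl1 had 3.89 to 8.03 CPM, Slc18a3 3.90 to 11.6 CPM, Slc5a7 2.72 to 7.74 CPM and Prph 1.09 to 2.47 CPM there. Markers of astrocytes or radial glia summed to 973 to 2077 CPM in somatodendritic and to 1938 to 4834 CPM in axonal libraries. In bulk RNA, fewer cells of a type and less RNA per cell cannot be told apart.

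Slc12a5 had 537, 611, 530 and 494 CPM in the 4 +/+ somatodendritic libraries and 674, 388, 442 and 423 CPM in the 4 Hnrnpr-/- somatodendritic libraries. Its values in axons were 36.5, 30.4, 8.28 and 50.4 CPM in +/+ and 88.7, 47.0, 4.05 and 12.8 CPM in Hnrnpr-/- libraries. The highest axonal library thus stood below the lowest somatodendritic library in both genotypes. Counts behind the axonal values ran from 135 to 3053, far from the 3 counts that an unseen gene could have had, and these limits cover counting error alone. The axonal libraries of Hnrnpr-/- motoneurons spread 21.9-fold between replicates 3 and 1, and those of +/+ motoneurons spread 6.08-fold, whereas somatodendritic libraries spread 1.74-fold and 1.24-fold.

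**Figure D1:**
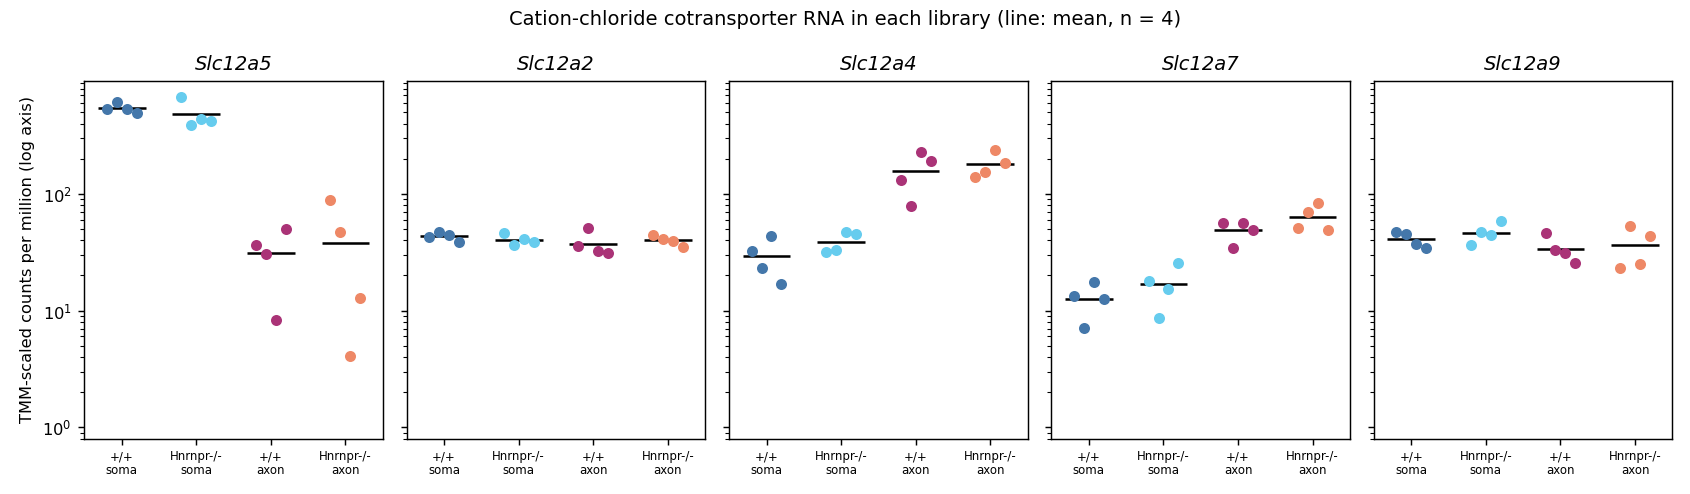
Level of each cotransporter in the 16 libraries, as TMM-scaled CPM on a log axis, with points for the 4 libraries of each group and a line at the mean. Slc12a5 has 388 to 674 CPM in somatodendritic and 4.05 to 88.7 CPM in axonal libraries, Slc12a2 stays between 31.3 and 50.9 CPM, and Slc12a4 and Slc12a7 are higher in all axonal than in all somatodendritic libraries.

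Slc12a5 was chosen for its low axonal level in these data, so its difference between compartments is described without a test in both genotypes. In the +/+ libraries its log2 fold change between axons and somata was -4.09 (SE 0.48), a level 17-fold lower in axons. This placed it at rank 3 from the bottom of the 5145 genes with at least 50 CPM over the +/+ libraries. Directly below it stood Syt2, a calcium sensor of fast transmitter release, at -4.11, and directly above it Gabra3, a GABA-A receptor subunit, at -3.97. In Hnrnpr-/- libraries the log2 fold change of Slc12a5 was -3.61 (SE 0.84), or 12.2-fold lower in axons. Over all genes tested, with no minimum level, 63 of 18690 had a lower log2 fold change in Hnrnpr-/- and 63 of 18679 in +/+ libraries. The size depended on single libraries and on the pairing of compartments, with -4.46 without axonal replicate 1, -3.24 without axonal replicate 3 and -4.31 with the replicate number as a block.

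The axonal libraries with little Slc12a5 also held little RNA of other neuronal genes. The summed level of GABA-A and glycine receptor genes in Hnrnpr-/- axons was 640, 394, 87.1 and 194 CPM in replicates 1 to 4, in the same order of libraries as Slc12a5. The motoneuron markers summed to 76.2, 26.3, 4.44 and 16 CPM in the same libraries. In +/+ axons the receptor sums were 358, 485, 113 and 392 CPM, with the lowest again in the library lowest in Slc12a5, replicate 3. The part of cell or axon content in the Slc12a5 values was not tested.

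Slc12a2 showed no such drop. It had 43.1, 47.1, 44.3 and 38.8 CPM in +/+ somatodendritic libraries, 46.1, 36.2, 41.5 and 38.9 CPM in Hnrnpr-/- somatodendritic libraries, 35.8, 50.9, 32.3 and 31.3 CPM in +/+ axons and 44.4, 41.3, 39.8 and 35.1 CPM in Hnrnpr-/- axons. The ranges of all 4 groups overlapped. In Hnrnpr-/- libraries the log2 fold change between axons and somata was 0.04 (SE 0.14, 95% interval -0.29 to 0.37, edgeR adjusted p = 0.83), an interval that ends at a 1.29-fold higher level in axons. The +/+ value was -0.18 (SE 0.19), given as a description.

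The ratio of Slc12a5 to Slc12a2 within a library needs no scaling between libraries. As log2 of the counts with 0.5 added to each, it was 3.64, 3.70, 3.58 and 3.67 in +/+ and 3.87, 3.42, 3.41 and 3.44 in Hnrnpr-/- somatodendritic libraries. In axons it was 0.03, -0.74, -1.96 and 0.68 in +/+ and 1.00, 0.19, -3.29 and -1.45 in Hnrnpr-/- libraries. Per base of exon, the somatodendritic libraries held 11.8 to 16.2 times as much Slc12a5 as Slc12a2, and the axonal libraries 0.112 to 2.21 times as much. Both transporters thus had similar levels in axons on average, with either one ahead in single libraries.

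The Hnrnpr-/- ratio was -0.89 ± 1.90 (SD, n = 4) in axons and 3.54 ± 0.22 (SD, n = 4) in somata. The groups did not overlap and differed by -4.43 on the log2 scale, which is a description as well, since Slc12a5 sets this difference.

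**Figure D2:**
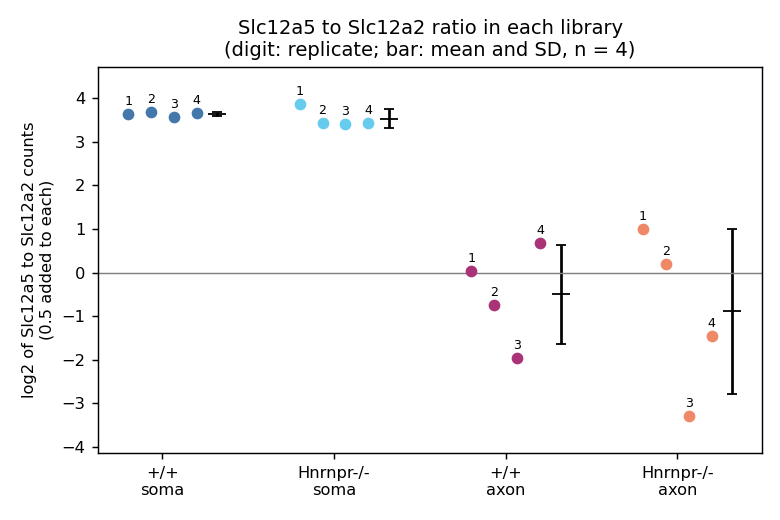
Log2 ratio of Slc12a5 to Slc12a2 counts (0.5 added to each) in every library, with the replicate number beside each point and a bar for mean and SD. Somatodendritic libraries lie between 3.41 and 3.87, and axonal libraries between -3.29 and 1.00, with replicate 3 lowest in both genotypes.

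Slc12a4, the KCC1 gene, was higher in axons. It had 32.6, 23.2, 43.9 and 17 CPM in +/+ and 31.6, 32.9, 46.9 and 45.1 CPM in Hnrnpr-/- somatodendritic libraries, against 132, 78.1, 229 and 192 CPM in +/+ and 140, 153, 239 and 185 CPM in Hnrnpr-/- axons. No axonal library of either genotype reached down to a somatodendritic one. In Hnrnpr-/- libraries the log2 fold change was 2.26 (SE 0.23, 95% interval 1.74 to 2.78, edgeR adjusted p = 0.000764, higher in 4 of 4 libraries), or 4.79-fold higher in axons. The +/+ value was 2.46 (SE 0.40).

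Slc12a7, the KCC4 gene, moved the same way from a lower level. Its values were 13.3, 7.16, 17.6 and 12.5 CPM in +/+ and 18.0, 8.70, 15.4 and 25.6 CPM in Hnrnpr-/- somata, and 56.0, 34.7, 56.6 and 49.1 CPM in +/+ and 51.1, 70.1, 83.5 and 49.0 CPM in Hnrnpr-/- axons. The compartments did not overlap in either genotype. In Hnrnpr-/- libraries the log2 fold change was 1.96 (SE 0.33, 95% interval 1.20 to 2.72, edgeR adjusted p = 0.00238, higher in 4 of 4 libraries), or 3.9-fold, and in +/+ libraries it was 1.98 (SE 0.29). Slc12a4 had more counts than Slc12a7 in every library, by a log2 ratio of 0.45 to 2.02.

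Slc12a9, the CIP1 gene, had 46.9, 45.2, 37.0 and 34.4 CPM in +/+ somata, 36.4, 47.0, 44.1 and 58.2 CPM in Hnrnpr-/- somata, 45.9, 32.9, 31.5 and 25.8 CPM in +/+ axons and 23.4, 53.0, 25.3 and 43.6 CPM in Hnrnpr-/- axons. The groups overlapped throughout. In Hnrnpr-/- libraries the log2 fold change between axons and somata was -0.29 (SE 0.29, 95% interval -0.95 to 0.36, edgeR adjusted p = 0.409). Of the 4 members beside Slc12a5, edgeR's test thus called 2 higher and 0 lower in Hnrnpr-/- axons, where 29.3% of all genes tested were called higher and 25.4% lower.

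**Figure D3:**
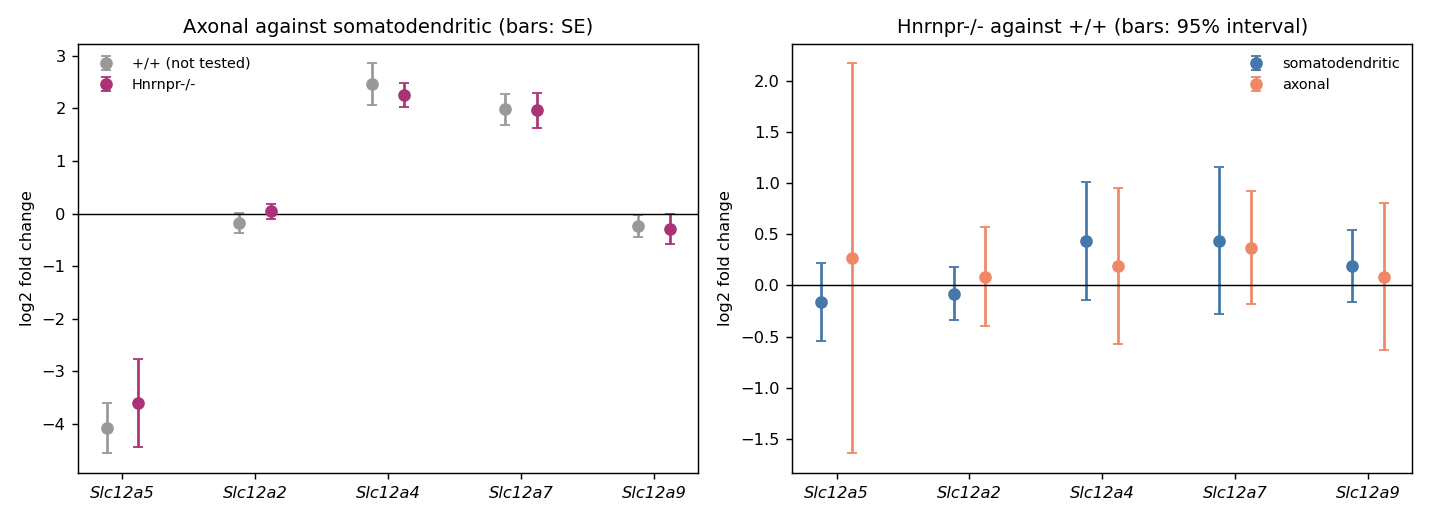
Log2 fold changes of the 5 members, on the left between axonal and somatodendritic libraries of each genotype with SE bars, and on the right between Hnrnpr-/- and +/+ libraries of each compartment with 95% intervals. Slc12a5 lies at -4.09 in +/+ and -3.61 in Hnrnpr-/-, Slc12a4 and Slc12a7 lie near 2, and every interval between genotypes includes 0.

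Some glial and mesenchymal markers differed between compartments, at no higher share than all genes. Fabp7, a fatty acid binding protein of radial glia, rose in Hnrnpr-/- axonal libraries with a log2 fold change of 1.90 (edgeR adjusted p = 0.00103), and the glial gene Sox9 rose too at 0.82 (adjusted p = 0.0355). Pdgfrb, a receptor of pericytes and fibroblasts, rose by 3.09 (adjusted p = 0.0075). Of 7 markers of astrocytes or radial glia, 2 passed the threshold as higher and 0 as lower, of 6 markers of fibroblasts or meningeal cells 1 passed as higher and 0 as lower, and of 6 of oligodendroglia or Schwann cells 1 passed as higher and 0 as lower, where 29.3% of all genes were called higher and 25.4% lower. The endothelial list was split, with Kdr higher and Pecam1 and Cldn5 lower. So were 4 long noncoding RNAs kept mostly in nuclei. Malat1 had 147 to 381 CPM in Hnrnpr-/- somata and 400.3 to 542 CPM in axons, a rise of 0.81 (edgeR adjusted p = 0.0387), and Neat1 rose by 1.77 (adjusted p = 0.0128). Meg3 fell, with a log2 fold change of -2.11 (edgeR adjusted p = 0.00951), as did Snhg11 at -2.52 (adjusted p = 0.0126). The part of these markers in the values of Slc12a4 and Slc12a7 was not tested.

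Per kb of exon, the order of the members changed with the compartment. In +/+ somata the level of Slc12a5 was 87.8 ± 7.93 CPM per kb (SD, n = 4), followed by Slc12a4 at 7.54 ± 3.03, Slc12a2 at 6.35 ± 0.505, Slc12a9 at 4.52 ± 0.675 and Slc12a7 at 2.15 ± 0.728. Slc12a4 and Slc12a2 overlapped there, and the other neighbours did not. In Hnrnpr-/- somata the order was the same, from 77.9 ± 21.1 CPM per kb for Slc12a5 to 2.88 ± 1.19 for Slc12a7 (SD, n = 4), with overlap between Slc12a2 and Slc12a9 and between Slc12a9 and Slc12a7.

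In axons Slc12a4 led instead. It had 40.8 ± 17.3 CPM per kb in +/+ and 46.4 ± 11.4 in Hnrnpr-/- axons (SD, n = 4), apart from all other members. Slc12a7 came second with 8.36 ± 1.74 in +/+ and 10.8 ± 2.79 in Hnrnpr-/- axons. The remaining levels were 5.50 ± 1.33 for Slc12a2, 5.08 ± 2.83 for Slc12a5 and 3.76 ± 0.937 for Slc12a9 in +/+ axons, and 6.17 ± 6.22 for Slc12a5, 5.88 ± 0.565 for Slc12a2 and 4.02 ± 1.59 for Slc12a9 in Hnrnpr-/- axons. From the second place down, each neighbour overlapped the next in both genotypes, so their order is not resolved.

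Summed over all 9 SLC12 genes of the table, the family had 105.5 to 130 CPM per kb in +/+ and 91.1 to 144 in Hnrnpr-/- somata, against 47.1 to 82.2 in +/+ and 71.7 to 89.3 in Hnrnpr-/- axons. Slc12a5 made up 71.1% to 75.9% of the sum in +/+ somata and 64.7% to 75.9% in Hnrnpr-/- somata. In axons its share was 7.96% ± 4.25 (SD, n = 4) in +/+ and 8.27% ± 8.42 (SD, n = 4) in Hnrnpr-/- libraries, where single libraries ran from 0.734% to 19.4%. Slc12a4 held the largest share there, with 42.9% to 72.2% of the sum in +/+ and 49% to 69.3% in Hnrnpr-/- axons. These shares depend on each other, since they add up to the whole.

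**Figure D4:**
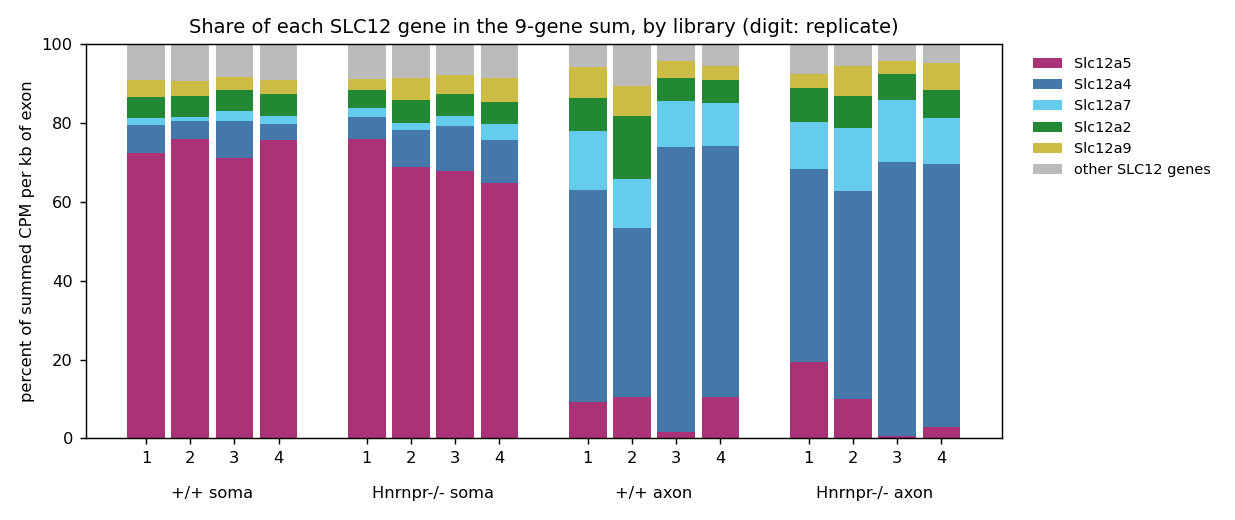
Share of each cotransporter in the summed CPM per kb of all 9 SLC12 genes, one stacked bar per library with the genes outside the 5 in grey, in percent from 0 to 100. Slc12a5 fills 64.7% to 75.9% of the somatodendritic bars and at most 19.4% of the axonal bars, in which Slc12a4 fills 42.9% to 72.2%.

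Other family members stood at low levels. Slc12a8 had at most 8.31 CPM in any library and rose in Hnrnpr-/- axons by 2.03 on the log2 scale (SE 0.57, edgeR adjusted p = 0.0163). Slc12a1 and Slc12a3, the kidney cotransporters NKCC2 and NCC, reached at most 8 and 6 counts in a library and were not tested.

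No member differed between the genotypes beyond the spread of the libraries. In somata the log2 fold change of Hnrnpr-/- against +/+ libraries was -0.16 for Slc12a5 (95% interval -0.54 to 0.22), -0.08 for Slc12a2 (-0.34 to 0.18), 0.43 for Slc12a4 (-0.14 to 1.01), 0.44 for Slc12a7 (-0.28 to 1.16) and 0.19 for Slc12a9 (-0.16 to 0.54). None of the 5 was called by edgeR's quasi-likelihood test, and the adjusted p was 0.999 for each, where 0.00557% of genes were called, which is Hnrnpr alone. Without adjustment 2.62% of genes and 0 of the 5 members had a p under 0.05. This rested on single libraries. Without Hnrnpr-/- somatodendritic replicate 1, in which Slc12a5 was highest, its log2 fold change was -0.37 with an unadjusted p of 0.00298 in edgeR's test (adjusted p = 0.17), and the genes with an unadjusted p under 0.05 went from 471 to 2291. Without +/+ somatodendritic replicate 3, Slc12a4 had 0.69 with an unadjusted p of 0.014 in the same edgeR test (adjusted p = 0.977).

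Axonal libraries set wider limits for each member except Slc12a7. There the log2 fold change was 0.26 for Slc12a5 (95% interval -1.64 to 2.17), 0.09 for Slc12a2 (-0.39 to 0.57), 0.19 for Slc12a4 (-0.57 to 0.95), 0.37 for Slc12a7 (-0.19 to 0.92) and 0.08 for Slc12a9 (-0.64 to 0.80). The test called 0 of the 5, with an adjusted p of 1 after rounding, where 0.00528% of genes were called, again Hnrnpr alone, and 0.723% of genes and 0 of the 5 members had an unadjusted p under 0.05. For Slc12a5 the interval spans 3.12-fold lower to 4.49-fold higher, so a change within these limits in axons was not excluded by these libraries.

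The difference between the genotypes in the step from somata to axons was tested over all 16 libraries. It was 0.45 for Slc12a5 (95% interval -1.54 to 2.44), 0.19 for Slc12a2 (-0.29 to 0.67), -0.24 for Slc12a4 (-1.22 to 0.75), -0.05 for Slc12a7 (-0.99 to 0.90) and -0.09 for Slc12a9 (-0.87 to 0.69) on the log2 scale. No member and no other gene was called, which is 0% of 19964 genes, and 1.33% of genes and 0 of the 5 members had an unadjusted p under 0.05. The Slc12a5 to Slc12a2 ratio differed between the genotypes by -0.11 in somata (exact permutation p = 0.429, adjusted 0.643 over 3 ratio comparisons) and by -0.39 in axons (exact permutation p = 0.771, adjusted 0.771) on the log2 scale.

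Genes with the pattern most like Slc12a5 were found by the root mean square difference of log2 CPM over the 16 libraries, after each gene's mean was removed. Closest of 19964 genes were Disp2 at 0.278, Kndc1 at 0.301, Cacna2d2 at 0.311, Syt2 at 0.350 and Slc32a1 at 0.363. Cacna2d2 encodes an auxiliary subunit of calcium channels, Kndc1 a protein of dendrites, and Slc32a1 the vesicular transporter for GABA and glycine that marks inhibitory neurons. Slc32a1 had 36.8 to 58.5 CPM in somatodendritic libraries and 0.66 to 8.02 CPM in axonal libraries. Of the motoneuron markers, Chat did not exceed 1.31 CPM in any library. Slc18a3 had 3.90 to 11.6 CPM and Slc5a7 had 2.72 to 7.74 CPM in somatodendritic libraries.

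For Slc12a2 the closest genes were Ikbkb at 0.114, Qrsl1 at 0.133, Smad5 at 0.134, Abhd17c at 0.134 and Ubtd2 at 0.137, all with group means that differ little between compartments. Ikbkb, a kinase of the NF-kB pathway, had means of 57 and 55 CPM in +/+ and Hnrnpr-/- somata and of 50.8 and 54.2 CPM in axons. Among the members themselves, Slc12a4 and Slc12a7 were close at 0.443 and Slc12a2 and Slc12a9 at 0.414, whereas Slc12a5 stood 2.28 or more from each of the others.

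The kinases that set the activity of the cotransporters were mostly lower in Hnrnpr-/- axons. WNK kinases activate SPAK and OSR1, which switch NKCC1 on and KCCs off by phosphorylation. Of 8 genes of this list tested, 5 were called lower and 1 higher, where 25.4% of all genes were called lower and 29.3% higher. The median log2 fold change was -0.75 beside 0.04 over all genes. Wnk3 fell the most at -2.89 (SE 0.51, edgeR adjusted p = 0.00264), from 20.9 to 76.8 CPM in Hnrnpr-/- somata to 3.12 to 7.24 CPM in axons. Wnk1 rose by 1.34 (adjusted p = 0.00839), while Stk39, the SPAK gene, at -0.28 and Cab39l, which encodes a scaffold of these kinases, at 0.05 passed no threshold.

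Proteins that bind or regulate KCC2 were split. Of 8 genes 4 were called lower and 2 higher, against 25.4% and 29.3% of all genes, so that the share called higher is near that of all genes. The median was -1.28. The GABA-B receptor gene Gabbr1 had a log2 fold change of -2.88 and fell from 435 to 624 CPM in somata to 14.4 to 127 CPM in axons (edgeR adjusted p = 0.00498). Epb41l1, the cytoskeletal protein 4.1N, fell by 2.55 (adjusted p = 0.00447), the kainate receptor gene Grik2 by 2.27 (0.00859) and Neto2, an auxiliary kainate receptor subunit, by 1.12 (0.0088). Ckb, brain creatine kinase, rose by 1.85 (adjusted p = 0.000911) and Prkcd, a protein kinase C, by 1.05 (0.0105). Ntrk2, the BDNF receptor TrkB, at -0.30 and Pacsin1 at -1.43 (adjusted p = 0.0686) did not pass.

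Among the transcriptional regulators of Slc12a5, Rest, a repressor of neuronal genes, rose by 2.17 (SE 0.23, edgeR adjusted p = 0.000778). It had 8.32 to 12.5 CPM in Hnrnpr-/- somata and 37.6 to 64.8 CPM in axons, and 8.78 to 11.8 CPM in +/+ somata and 29.2 to 67.1 CPM in +/+ axons. The E-box factors Usf1 and Usf2 had log2 fold changes of 0.14 and 0.30, and Egr4 one of 0.11, without passing the threshold.

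The sodium pump supplies the ion gradients that the cotransporters use. Of its beta subunit genes, Atp1b1 and Atp1b2 fell by 1.87 (edgeR adjusted p = 0.0356) and 1.33 (adjusted p = 0.0338) in Hnrnpr-/- axons, and Atp1b3 rose by 0.60 (adjusted p = 0.0203). Of 14 other chloride transporter and channel genes, 10 were called lower and 1 higher, against 25.4% and 29.3% of all genes, with a median of -1.05. Slc4a10, a sodium-driven bicarbonate transporter of neurons, had the lowest log2 fold change, -3.46 (adjusted p = 0.00848), and Slc4a2, the anion exchanger AE2, rose by 1.35 (adjusted p = 0.00118).

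Genes of the receptors whose current depends on the chloride gradient were mostly lower in Hnrnpr-/- axons. Of 15 GABA-A and glycine receptor genes tested, 9 were called lower and 0 higher in Hnrnpr-/- axons, where 25.4% and 29.3% of all genes were called, with a median of -2.24 on the log2 scale. The glycine receptor subunit gene Glra1 had the lowest log2 fold change, -3.56 (SE 0.80, edgeR adjusted p = 0.00684), from a low level of at most 12.5 CPM. Gabra3 fell by 3.38 (adjusted p = 0.00723) and Glra3 by 3.13 (adjusted p = 0.0343). Between the genotypes, 0 genes of these lists were called in either compartment.

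**Figure D5:**
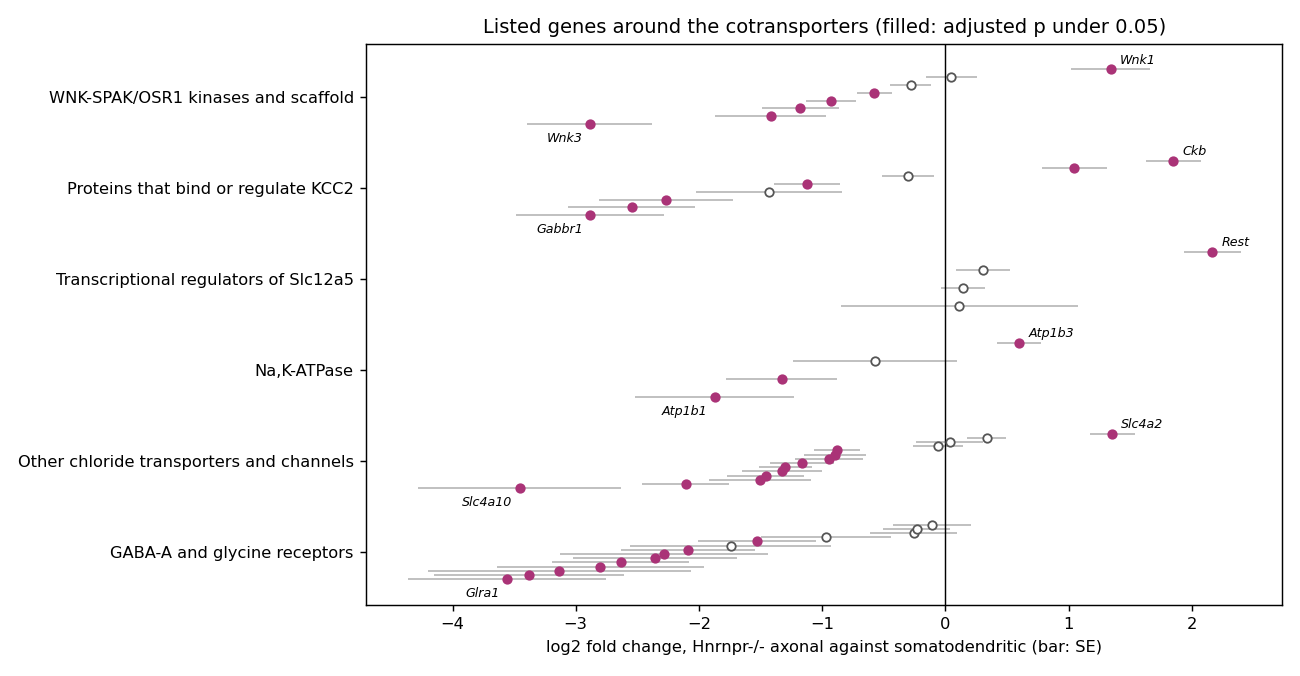
Log2 fold change of listed genes between axonal and somatodendritic Hnrnpr-/- libraries, with SE bars, filled where the edgeR adjusted p was under 0.05 and open otherwise, for the genes reported here. In the receptor list 9 genes are called lower and 0 higher, while each of the other 5 lists plotted holds at least 1 gene called higher, such as Rest at 2.17 and Ckb at 1.85.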

How the data were processed

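RNA of the somatodendritic and axonal compartments of +/+ and Hnrnpr-/- motoneurons was sequenced in 4 libraries per group. Per the methods, the authors made cDNA with SMART-Seq v4, which does not mark strand, and libraries with Nextera XT, trimmed reads, aligned them to GRCm39 with STAR 2.7.2b and counted them per RefSeq gene with featureCounts 1.6.4. The deposited values are estimated counts per gene, since the authors counted reads that map to several places or genes as fractions and used a reverse-stranded setting. Fractions occurred in 4 of 16 libraries for Slc12a4, in 8 for Slc12a5, in 5 for Slc12a9 and in 0 for Slc12a2 and Slc12a7.

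Counts were rounded to whole numbers and tested with edgeR 4.0.16 in R 4.3.3 (filterByExpr, TMM, quasi-likelihood F-test, Benjamini-Hochberg adjustment over all genes tested, threshold 0.05). The 8 libraries of each comparison were fitted alone, and the difference between genotypes over all 16. Of 46320 genes, 35571 had a count. Levels are TMM-scaled CPM, divided by exon length where genes are compared. Ratios were tested with exact two-sided permutation tests in SciPy 1.17.1. The fits were tested on simulated data. The study describes the 4 libraries of a group as biological replicates, and the labels do not tie them to animals.

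The labels number the libraries of each compartment alike. Same-numbered compartments of one genotype deviated together from their group means, with correlations across genes of 0.40, 0.18, 0.19 and 0.51 in Hnrnpr-/- and 0.21, 0.21, 0.24 and 0.11 in +/+ motoneurons. The numbers were therefore taken to pair the compartments in an alternative fit with a replicate block. The main tests had no such block. Values with the block are given for the members and not for the listed genes.

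The 5 genes, the lists and the tests were chosen with earlier results of these data known, and the +/+ compartments carry no test. Slc12a5 was planned to be tested between Hnrnpr-/- compartments, but its choice names no genotype, so that difference and its ratio to Slc12a2 are given without p. Named besides the 5 genes were Hnrnpr, the genes of the lists with the largest called changes, the 5 genes nearest in pattern to Slc12a5 and to Slc12a2, and the neighbours of Slc12a5 in the +/+ order. Alternatives were other scalings and filters, DESeq2 1.42.0, unrounded values, the replicate number as a block, 1 fit of all libraries, and leaving out each library. Start-site sequences come from RefSeq windows on GRCm38.p6, in which 4 of the 5 genes had an entry. Results for some listed genes are not reported here.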

Additional observations from a re-analysis of the deposited data

Results flagged for a closer look

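The ratio of Slc12a5 to Slc12a2 was tested for libraries far from the rest of their group, along with the member levels and ratios, in 24 groups of 4 libraries. In 1 of the 24, Hnrnpr-/- somatodendritic replicate 1 stood apart, with a log2 ratio of 3.87 beside 3.42, 3.41 and 3.44 in the other libraries. Chance alone flags about 1 in 20 such groups. The same library had the highest Slc12a5 of its group, 674 CPM, and its axonal partner had the highest Slc12a5 of the Hnrnpr-/- axons, 88.7 CPM. The cause was not tested.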

How the results depend on the processing

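The calls of Slc12a4 and Slc12a7 between Hnrnpr-/- compartments held under all 17 alternatives, with log2 fold changes of 2.08 to 2.36 and 1.69 to 2.22 and adjusted p-values of up to 0.0108 in edgeR or DESeq2. The value of Slc12a5 ran from -4.46 to -3.24. Slc12a2 passed the threshold under none of them, and its value of 0.04 turned to -0.0099 in DESeq2 with default settings, -0.0098 in DESeq2 with shrinkage and -0.019 in 1 fit of all 16 libraries, and ran from -0.078 to 0.10 with a library left out.

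With the replicate block, the Hnrnpr-/- ratio difference stayed at -4.43, and leaving out a library gave -5.06 to -3.63. The block turned the axonal difference between genotypes for Slc12a5 to -0.26 and its genotype-by-compartment difference to -0.0304, and changed no call of a member. Same-numbered libraries of the 2 genotypes had correlations of -0.05, 0.17, 0.36 and 0.01 in somata and 0.03, 0.32, 0.68 and 0.01 in axons. In both compartments the largest was that of replicate 3. Whether equal numbers stand for a shared batch was not tested.

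No member passed the adjusted threshold between genotypes under any alternative. With a library left out, somatodendritic differences ran from -0.37 to -0.08 for Slc12a5, 0.24 to 0.69 for Slc12a4, 0.16 to 0.64 for Slc12a7, -0.15 to -0.03 for Slc12a2 and 0.06 to 0.29 for Slc12a9, and axonal differences ran from -0.58 to 0.63 for Slc12a5, -0.0037 to 0.28 for Slc12a2, -0.0277 to 0.45 for Slc12a4, 0.20 to 0.47 for Slc12a7 and -0.13 to 0.27 for Slc12a9, and the axonal ratio difference from -1.02 to 0.41. Genotype-by-compartment differences ran from -0.39 to 0.82 for Slc12a5, 0.10 to 0.37 for Slc12a2, -0.50 to -0.0051 for Slc12a4, -0.28 to 0.22 for Slc12a7 and -0.33 to 0.0943 for Slc12a9. The cause of these turns was not tested. Genes called between genotypes numbered 2 in somata with DESeq2 default, 2 in axons in 1 fit of all 16 libraries, and 0 to 1 in axons with a library left out, the 0 without Hnrnpr-/- axonal replicate 2, where 92 genes had an unadjusted p under 0.05 in edgeR. DESeq2 default called 1 gene for genotype by compartment. In CPM without length, 2, 3, 3 and 3 of the 5 members kept their rank in +/+ somata, Hnrnpr-/- somata, +/+ axons and Hnrnpr-/- axons.

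The members had 135 or more counts in every library. Slc12a5 spread 21.9-fold between Hnrnpr-/- axonal libraries. Compartment and cDNA amplification cannot be told apart, nor can fewer neuronal cells and less RNA per cell.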
